A study of Mus musculus with 58 samples.

Results

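The synaptic vesicle release machinery was followed as 36 genes, taken by symbol from a given list and matched to the mouse GRCm38 annotation. All 36 were found among the 18088 genes of the table, and all 36 were among the 17925 genes whose level allowed a test. The list holds 6 vesicle proteins, 2 vesicular glutamate transporters, 3 synaptotagmin and Doc2 proteins, 4 SNARE proteins and 6 SNARE regulators and chaperones. It also holds Rab3a with its effector Rph3a, 8 active zone and priming factors and 5 endocytosis proteins. RNA came from prefrontal cortex of 58 C57BL/6J mice at postnatal day 25, each mouse 1 library. Pups had received lithium, fluoxetine or vehicle through the milk of the dam on postnatal days 3 to 24. Mice were labelled heterozygous (HT) or wild type (WT) for Tanc2, which encodes a synaptic scaffold protein. The arms were HT lithium (9 mice), WT lithium (10), HT fluoxetine (10), WT fluoxetine (10), HT vehicle (10) and WT vehicle (9), with 30 females and 28 males in all. Fluoxetine is an antidepressant that blocks the serotonin transporter, and lithium is given for bipolar disorder and acts on the kinase GSK3 among other targets. No litter or dam is named in the labels. The tests count each mouse as its own replicate, while a drug given through milk reaches a whole litter.

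A presynaptic terminal stores transmitter in vesicles that carry synapsins, synaptophysin and SV2 proteins, and glutamate is loaded by the transporters VGLUT1 and VGLUT2. At the active zone RIM, Munc13, Bassoon, Piccolo and ELKS proteins hold and prime vesicles, the SNARE proteins on vesicle and plasma membrane zip together, and synaptotagmin triggers fusion when calcium enters. NSF and SNAP proteins then take the SNARE complex apart, and clathrin adaptors, dynamin, endophilin, amphiphysin and synaptojanin retrieve the membrane.

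Some features of the libraries touch every comparison. Between 23271044 and 37801615 reads lay behind a library. Tanc2 was not lower in mice labelled HT, with means of 7953 ± 853 normalized reads in HT lithium mice against 7468 ± 355 in WT lithium mice, 8061 ± 463 in HT fluoxetine mice against 7529 ± 439 in WT fluoxetine mice, and 8093 ± 381 in HT vehicle mice against 7541 ± 387 in WT vehicle mice (SD). Under vehicle the HT minus WT difference was 0.10 ± 0.04 on the log2 scale (SE; limma adjusted p = 0.947). The altered stretch of Tanc2 is not given in the labels, so its summed reads cannot check them, and HT and WT here stand for the labels. Reads of the predicted gene Gm10221 were present in 27 libraries, which were all 19 lithium libraries, 5 of 5 HT fluoxetine females and 3 of 5 WT fluoxetine females, and absent from all vehicle libraries and all fluoxetine males. The mitochondrial gene mt-Atp6 averaged 52088 normalized reads in libraries with Gm10221 reads and 23274 in those without. For lithium against vehicle the drug and this feature cannot be told apart, and a term for it can only be estimated from the fluoxetine libraries. Presence of the reads varied within 1 of the 12 groups, the 5 WT fluoxetine females (3 with, 2 without). Beyond these 5, the term rests on fluoxetine females against males, with the sex difference taken as equal in all arms. Summed markers of olfactory bulb (9 genes) ran from 5017 to 31932 normalized reads, and markers of striatal neurons (11 genes) from 7408 to 23307, and the olfactory sums varied widely within each arm. Markers of cortical excitatory neurons (11 genes) summed to between 105660 and 185480 normalized reads in all libraries. In bulk tissue, fewer cells of a type and less RNA per cell cannot be told apart.

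Per length, the transporter of cortical glutamate terminals led the list. Slc17a7, which encodes VGLUT1, the main vesicular glutamate transporter of cortical neurons, averaged 16422 ± 1496 normalized reads per kb of its longest transcript (SD, n = 58 libraries). The synaptophysin gene Syp followed at 14940 ± 1085 and the vesicle SNARE gene Vamp2 at 14588 ± 867 reads per kb. The plasma membrane SNARE gene Snap25 stood at 12196 ± 1126 and the calcium sensor gene Syt1 at 10334 ± 841 reads per kb. Syp and Vamp2 differed by less than their SD. The order below Slc17a7 depended on the length used. Over all annotated exons Slc17a7 had 9380 reads per kb, Snap25 8764, Vamp2 8445 and Syp 8151. Syt1, at 5974, then had rank 8.

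At the low end stood Unc13b, which encodes the priming factor Munc13-2, at 165 ± 16.2 reads per kb, and Slc17a6, which encodes VGLUT2, the transporter of thalamic and other subcortical inputs, at 154 ± 27.7 reads per kb. Their order turned with length taken over all annotated exons, at 107 reads per kb for Unc13b and 118 for Slc17a6. Vamp1, the minor vesicle SNARE here, stood at 371 ± 52.4 reads per kb. The active zone genes were all in the lower part, from Rims1 at 1487 ± 224 down to Unc13b. Slc17a6 varied most between libraries, 2.31 times between its lowest (368.9 normalized reads) and its highest value (851), followed by Vamp1 at 2.13 times. Dnajc5, a chaperone of SNAP-25, varied least, 1.21 times.

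**Figure D1:**
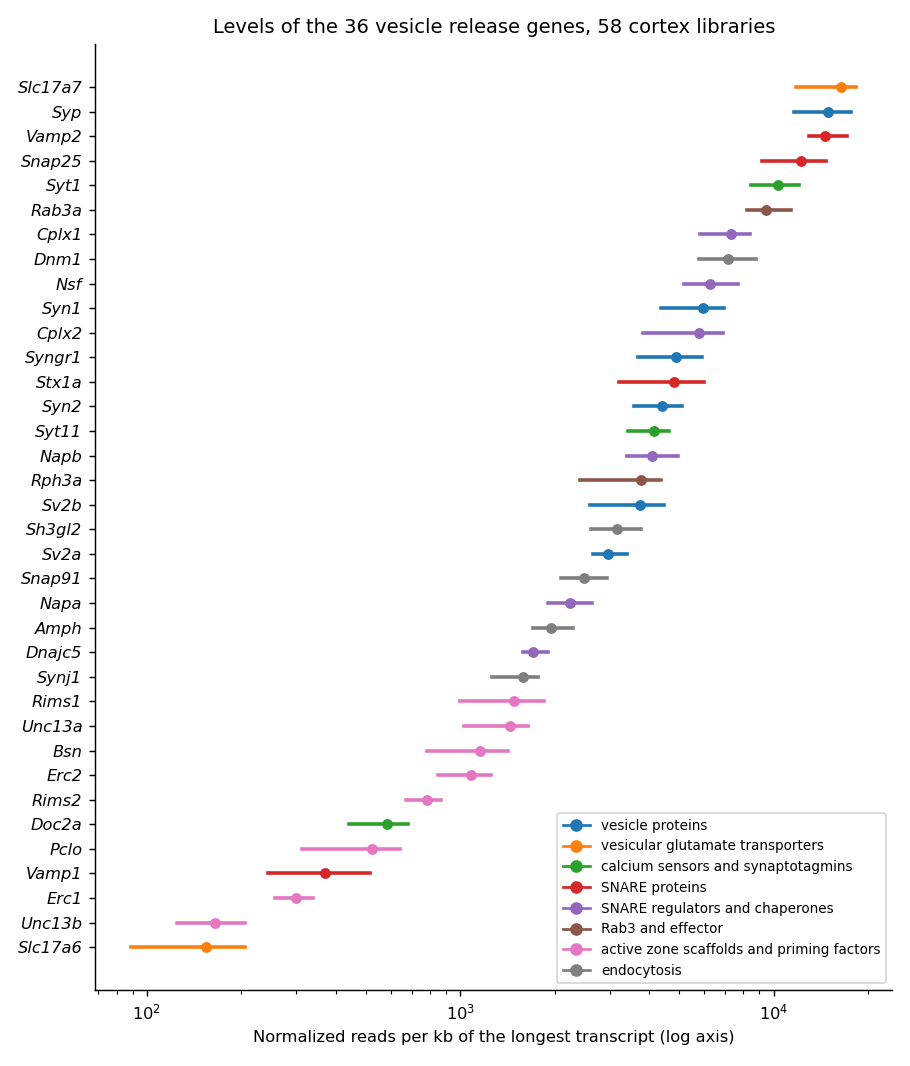
Normalized reads per kb of the longest transcript (log axis) of the 36 genes, ordered by their mean, with colours for their roles. Points are means and lines run from the lowest to the highest of 58 libraries. Slc17a7 is at the top (16422) and Slc17a6 at the bottom (154).

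The upstream sequences of the 4 genes with the smallest p under lithium over both genotypes are shown, because 2 of them rose and 2 fell. They are the 250 bases before the RefSeq gene start (GRCm38.p6), written 5′ to 3′ along the gene, with capitals for matches of the cyclic AMP response element TGACGTCA, the GC box GGGCGG, the CCAAT box CCAAT and the TATA box TATAAA on either strand. None of these 4 motifs overlapped another in them. RefSeq starts differ from the GENCODE gene positions given further below. By those positions the sequences of Syn1, Sv2a and Vamp1 reach into the gene, and that of Rims1 lies apart from it.
Syn1, chrX:20920919-20921168, minus strand: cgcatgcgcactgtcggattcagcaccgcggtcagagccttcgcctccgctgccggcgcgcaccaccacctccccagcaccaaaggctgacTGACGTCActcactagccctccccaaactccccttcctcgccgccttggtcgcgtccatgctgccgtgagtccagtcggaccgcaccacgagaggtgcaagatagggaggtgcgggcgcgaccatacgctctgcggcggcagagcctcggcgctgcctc
Sv2a, chr3:96180977-96181226, plus strand: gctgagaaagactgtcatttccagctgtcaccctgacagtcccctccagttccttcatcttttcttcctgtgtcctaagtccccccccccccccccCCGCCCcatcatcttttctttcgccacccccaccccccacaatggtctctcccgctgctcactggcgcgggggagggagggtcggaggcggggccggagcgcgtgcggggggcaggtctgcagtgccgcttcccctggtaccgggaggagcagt
Vamp1, chr6:125215331-125215580, plus strand: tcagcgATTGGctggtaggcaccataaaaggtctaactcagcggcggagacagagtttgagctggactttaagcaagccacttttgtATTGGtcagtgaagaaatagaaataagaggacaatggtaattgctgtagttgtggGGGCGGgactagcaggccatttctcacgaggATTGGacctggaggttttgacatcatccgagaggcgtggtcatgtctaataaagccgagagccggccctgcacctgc
Rims1, chr1:22806159-22806408, minus strand: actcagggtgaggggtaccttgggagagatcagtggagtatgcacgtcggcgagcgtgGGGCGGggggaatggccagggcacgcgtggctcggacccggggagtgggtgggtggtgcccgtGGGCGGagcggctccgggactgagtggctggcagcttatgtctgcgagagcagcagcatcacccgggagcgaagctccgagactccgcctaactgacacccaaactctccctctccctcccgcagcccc
Of the 36 genes, 31 had such a sequence in the RefSeq table. The GC box was found for 22 of these 31, against 35.4% of all 27025 genes with a sequence, and the CCAAT box for 8 of 31, against 37.5%. The TATA box was found for 1 of 31 (Sv2b), against 14.3% of all genes, and the cyclic AMP response element for 2 (Syn1 and Sh3gl2), against 1.77%. Syn1 and Rims1 had 27 and 19 CpG dinucleotides in 250 bases, Sv2a 13 and Vamp1 9. A match is a description of these letters and no measured binding site.

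Lithium was followed by the most changes among these genes, small in size and in both directions. Over both genotypes 3 of 36 rose (Syn1, Sv2a, Snap91) and 3 of 36 fell (Vamp1, Rims1, Unc13b), each by less than 0.3 on the log2 scale (limma, Benjamini-Hochberg over 17925 genes). That is 16.7% of the list, and of all genes 24.3% were called in this comparison (12.1% higher and 12.2% lower), so the share of the list lay below the background. In HT mice the same 3 rose and the same 3 fell, where 16.3% of all genes were called (8.25% higher and 8.03% lower). In WT mice Sv2a rose while Vamp1 and Rims1 fell, 8.33% of the list, where 7.47% of all genes were called (4.34% higher and 3.13% lower). The median difference of the 36 genes was 0.02 in HT mice, 0.00 for all genes, and -0.03 in WT mice, -0.01 for all genes. edgeR and DESeq2 on recovered reads gave the same counts in these 3 comparisons.

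**Figure D2:**
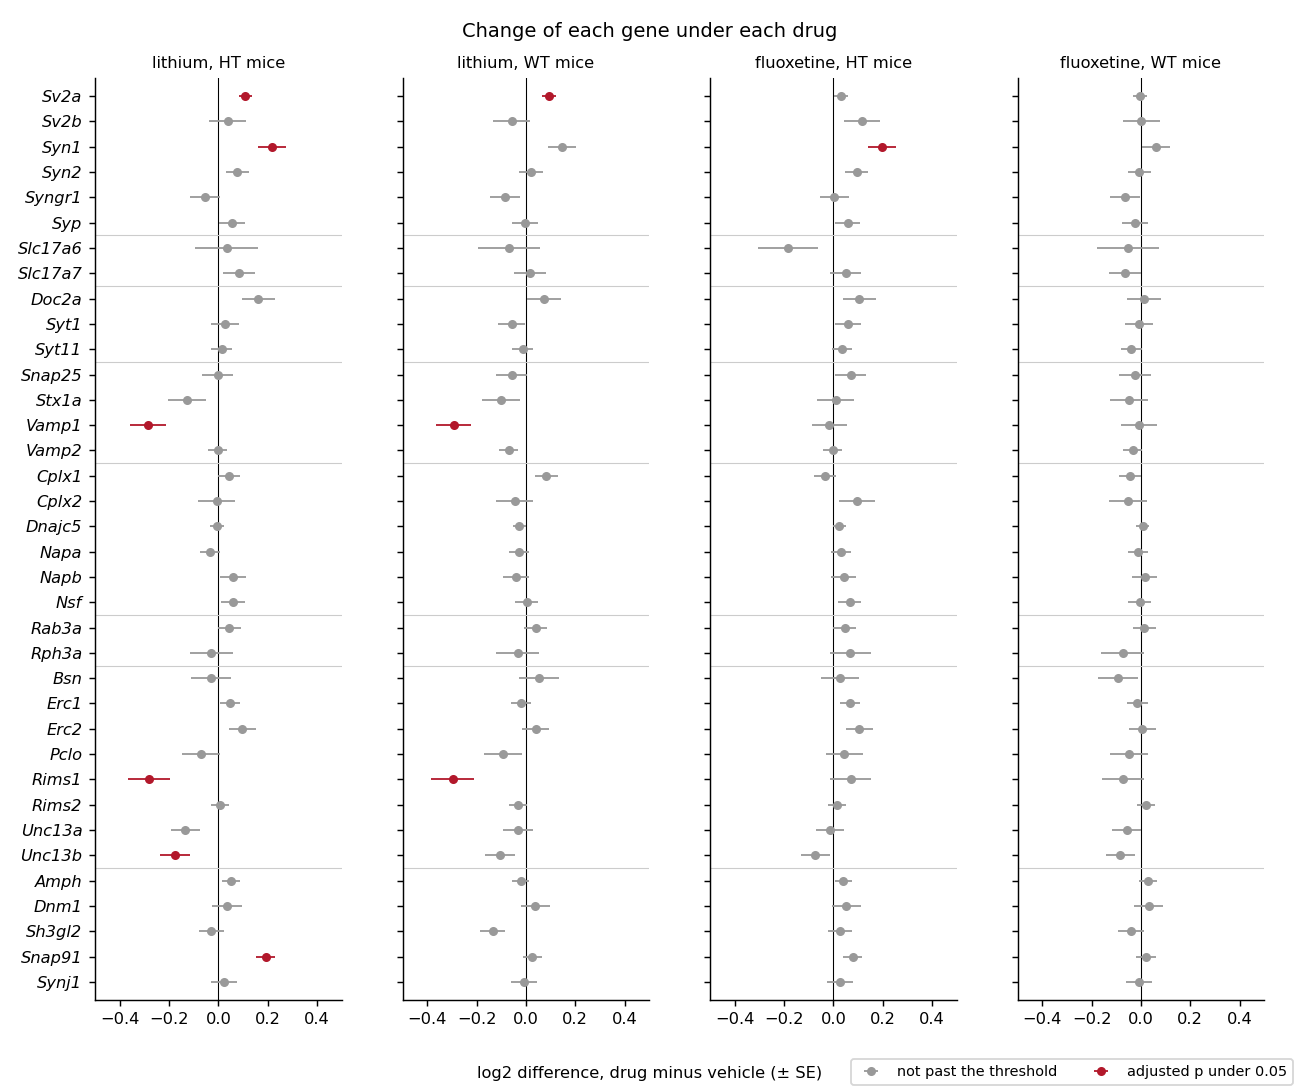
Log2 difference between drug and vehicle (± SE) for the 36 genes, grouped by role with grey lines between roles, for lithium in HT and WT mice and fluoxetine in HT and WT mice. Red points passed an adjusted p under 0.05, which were 6, 3, 1 and 0 genes in the 4 panels.

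Among vesicle proteins, Sv2a and Syn1 rose with lithium. Sv2a encodes SV2A, a vesicle glycoprotein and the binding site of the antiepileptic drug levetiracetam (chromosome 3, 96181151 to 96195521). It had 12545 to 13918 normalized reads in HT lithium mice (median 13408), against 11530 to 13008 in HT vehicle mice (median 12315). In WT mice it had 13109 to 13929 under lithium (median 13517), against 11832 to 13879 under vehicle (median 12652). Lithium values thus lay in the upper part of the range in both genotypes, and the arms overlapped. All 9 HT and all 10 WT lithium mice lay above the vehicle mean of their genotype and sex. The log2 difference was 0.11 ± 0.03 in HT mice (limma adjusted p = 0.00463), 0.09 ± 0.03 in WT mice (adjusted p = 0.0296) and 0.10 ± 0.02 over both (adjusted p = 0.00011). The WT call was lost without any 1 of WT lithium female 5, WT lithium male 3, WT vehicle female 1, WT vehicle male 2 or WT vehicle male 3, at 0.08 to 0.09 with adjusted p of 0.0551 to 0.0714.

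Syn1 encodes synapsin I, which tethers vesicles in the reserve pool (chromosome X, 20860511 to 20921004). It had 17823 to 22524 normalized reads in HT lithium mice (median 20364), against 15169 to 19847 in HT vehicle mice (median 17386). In WT lithium mice it had 18591 to 21712 (median 20848), against 16530 to 20123 in WT vehicle mice (median 18900). The arms overlapped, yet each of the 19 lithium mice lay above the vehicle mean of its genotype and sex. The difference was 0.22 ± 0.06 in HT mice (limma adjusted p = 0.00576) and 0.18 ± 0.04 over both genotypes (adjusted p = 0.000593). In WT mice it was 0.15 ± 0.06 and did not pass (adjusted p = 0.116).

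The other vesicle proteins did not pass under lithium. Syn2, Syp, Sv2b and Syngr1 lay between -0.05 for Syngr1 and 0.08 for Syn2 in HT mice and between -0.08 for Syngr1 and 0.02 for Syn2 in WT mice. Within a library the log2 ratio of Syn1 to Syn2 reads averaged 0.26 ± 0.10 in lithium mice (SD, n = 19), 0.21 ± 0.11 in fluoxetine mice (n = 20) and 0.12 ± 0.06 in vehicle mice (n = 19). The ratio of Sv2a to Sv2b reads averaged -0.60 ± 0.11 in lithium mice, -0.75 ± 0.18 in fluoxetine mice and -0.71 ± 0.13 in vehicle mice. These ratios compare arms and not levels of the paralogs, and no test was made of them.

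The transporters, the synaptotagmins and Doc2a did not pass. Slc17a7 had 47161 to 55692 normalized reads in HT lithium mice, against 42282 to 56085 in HT vehicle mice, and 44495 to 56488 in WT lithium mice, against 44390 to 55304 in WT vehicle mice. Its lithium differences were 0.08 in HT and 0.02 in WT mice, those of Slc17a6 0.03 and -0.07. Doc2a, a calcium sensor of spontaneous and asynchronous release, came nearest at 0.16 ± 0.07 in HT mice (limma adjusted p = 0.0954).

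Of the SNARE genes Vamp1 fell. Vamp1 encodes synaptobrevin-1, a vesicle SNARE (chromosome 6, 125215551 to 125245964). It had 1596 to 2157 normalized reads in HT lithium mice (median 1826.5), against 1894 to 2688 in HT vehicle mice (median 2308.5). In WT lithium mice it had 1388 to 1992 (median 1880), against 1952 to 2529 in WT vehicle mice (median 2258). Lithium values were low in both genotypes and overlapped only the lower end of vehicle values. Below the vehicle mean of their genotype and sex lay 8 of 9 HT and 10 of 10 WT lithium mice. The difference was -0.29 ± 0.07 in HT mice (limma adjusted p = 0.00416), -0.29 ± 0.07 in WT mice (adjusted p = 0.00743) and -0.29 ± 0.05 over both (adjusted p = 2.57e-05).

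Its more abundant paralog Vamp2 differed by 0.00 in HT and -0.07 in WT mice, and Snap25 by 0.00 and -0.06. The plasma membrane SNARE Stx1a differed by -0.13 and -0.10, and none of these genes passed. The within-library log2 ratio of Vamp1 to Vamp2 reads averaged -4.11 ± 0.18 in lithium mice, -3.85 ± 0.15 in fluoxetine mice and -3.85 ± 0.10 in vehicle mice (SD). None of the 6 SNARE regulators and chaperones passed under lithium, with differences in HT mice from -0.03 to 0.06. Rab3a, the vesicle GTPase, differed by 0.04 in HT and 0.04 in WT mice, and Rph3a by -0.03 in each, without passing.

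Among the active zone genes Rims1 fell in both genotypes and Unc13b in HT mice. Rims1 encodes RIM1, which links Rab3 on vesicles to Munc13 and calcium channels (chromosome 1, 22286251 to 22805994). It had 6590 to 9532 normalized reads in HT lithium mice (median 8366), against 8148 to 11772 in HT vehicle mice (median 9753). In WT lithium mice it had 7186 to 9146 (median 8482), against 8783 to 11168 in WT vehicle mice (median 10267). The arms overlapped, and all 19 lithium mice lay below the vehicle mean of their genotype and sex. The difference was -0.28 ± 0.09 in HT mice (limma adjusted p = 0.0186), -0.30 ± 0.09 in WT mice (adjusted p = 0.0239) and -0.29 ± 0.06 over both (adjusted p = 0.000295). Leaving out 1 library ended the call in HT mice for HT lithium female 4 (adjusted p = 0.0555) and HT lithium male 2 (adjusted p = 0.0696), and in WT mice for WT lithium female 5 (adjusted p = 0.0506), WT lithium male 2 (adjusted p = 0.0517) and WT vehicle male 2 (adjusted p = 0.0598). Removing each library's trends on gene length and GC also ended the calls in HT mice (-0.23, adjusted p = 0.0735) and in WT mice (-0.26, adjusted p = 0.0785), while the call over both genotypes held (-0.25, adjusted p = 0.0036).

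Unc13b (chromosome 4, 43058953 to 43264871) had 1846 to 2526.5 normalized reads in HT lithium mice (median 2291.5), against 2183.5 to 2700 in HT vehicle mice (median 2551). In WT lithium mice it had 2028.5 to 2891 (median 2336), against 2338 to 2737 in WT vehicle mice (median 2648). The arms overlapped widely, and 8 of 9 HT and 8 of 10 WT lithium mice lay below the vehicle mean of their genotype and sex. The difference was -0.17 ± 0.06 in HT mice (limma adjusted p = 0.0368), -0.10 ± 0.06 in WT mice (adjusted p = 0.325) and -0.14 ± 0.04 over both (adjusted p = 0.0117). With the same trends removed it was -0.07 in HT mice (adjusted p = 0.514) and -0.04 over both genotypes (adjusted p = 0.52), which ended both calls. The HT call was lost without any 1 of 9 libraries (HT lithium female 4, male 1 or male 3, HT vehicle female 1, 2 or 5, and HT vehicle male 1, 3 or 5), with adjusted p of 0.0525 to 0.114. Unc13a, the main Munc13 of cortical terminals, differed by -0.13 ± 0.06 in HT mice without passing (adjusted p = 0.119). Rims2, Bsn, Pclo, Erc1 and Erc2 did not pass in either genotype. The log2 ratio of Rims1 to Rims2 reads averaged 1.16 ± 0.11 in lithium mice, 1.42 ± 0.21 in fluoxetine mice and 1.43 ± 0.11 in vehicle mice (SD).

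Of the endocytosis genes Snap91 rose in HT mice. Snap91 encodes AP180, a clathrin assembly protein of nerve terminals (chromosome 9, 86765923 to 86880654). It had 12826 to 15720 normalized reads in HT lithium mice (median 14021), against 11192 to 13658 in HT vehicle mice (median 12293), and the arms overlapped in the middle. In WT lithium mice it had 13040 to 13841 (median 13453), inside the 11423 to 14039 of WT vehicle mice (median 13309). Above the vehicle mean of their genotype and sex lay 9 of 9 HT and 9 of 10 WT lithium mice. The difference was 0.19 ± 0.04 in HT mice (limma adjusted p = 0.0004) and 0.03 ± 0.04 in WT mice (adjusted p = 0.782). The HT effect minus the WT effect was 0.17 ± 0.06 and did not pass (adjusted p = 0.622), so a difference between genotypes was not shown. Sh3gl2, Dnm1, Synj1 and Amph did not pass, with Sh3gl2, the endophilin gene, at -0.14 ± 0.05 in WT mice (adjusted p = 0.103). For Sh3gl2 10 of 10 WT and 5 of 9 HT lithium mice lay below that vehicle mean, so a full count also occurred without a call.

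**Figure D3:**
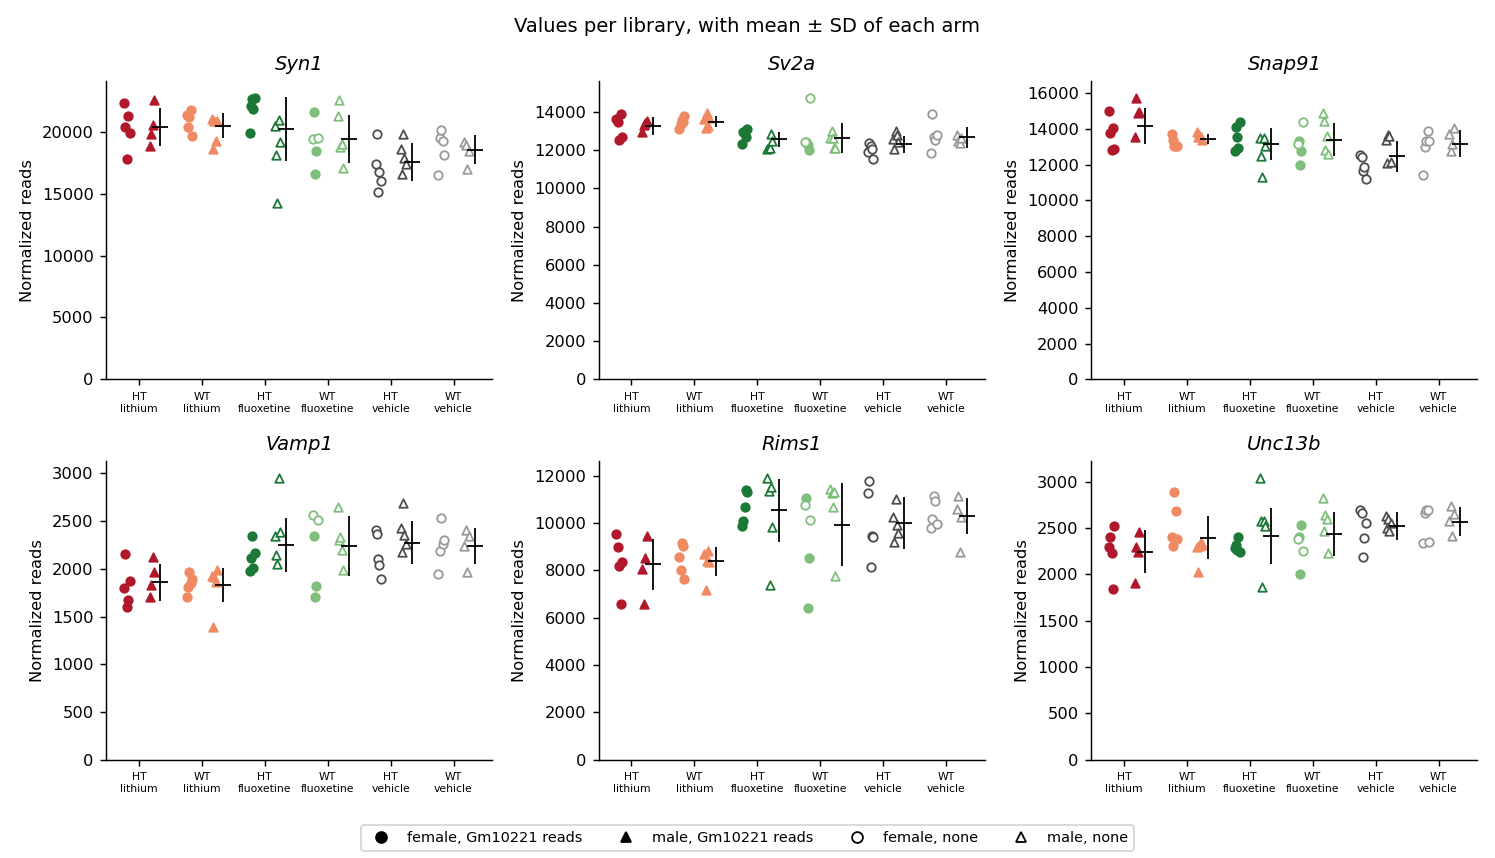
Normalized reads of the 6 genes called under lithium over both genotypes in every library, by arm, with circles for females and triangles for males. Filled symbols are libraries with Gm10221 reads, open symbols those without, and bars give mean ± SD of an arm. Vamp1 and Rims1 are low in both lithium arms, and no vehicle symbol is filled.

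The lithium calls were lost when the Gm10221 reads entered the fit. With presence of these reads as a term in the fit, 0 of 36 genes were called by limma in each of the 3 lithium comparisons, where 0.0279% of all genes were called over both genotypes, 0% in HT and 0.0167% in WT mice. The difference over both genotypes was then -0.09 ± 0.09 for Vamp1, -0.16 ± 0.11 for Rims1, -0.02 ± 0.08 for Unc13b, 0.08 ± 0.08 for Syn1, 0.06 ± 0.05 for Snap91 and 0.10 ± 0.04 for Sv2a. The value of Sv2a was the same as without the term, with an SE of 0.04 in place of 0.02, and the other 5 values were smaller by over 1.5 times. The fit with both this term and the olfactory bulb covariate, given with that covariate, left the Rims1 value near -0.29 again. In the 5 WT fluoxetine females, Vamp1 had 1707, 1816 and 2343 normalized reads in the 3 libraries with Gm10221 reads and 2510 and 2567 in the 2 without. Rims1 had 6427, 8510 and 11073 with those reads and 10139 and 10777 without, and here the libraries overlapped. Whether the reads mark a batch is not given in the labels.

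Females whose libraries held Gm10221 reads allowed 1 comparison within that feature, 10 lithium against 8 fluoxetine mice. Members passing numbered 0 in limma and edgeR and 1 in DESeq2. Unadjusted, 4 had a limma p under 0.05, as had 15.4% of all genes, of which 0.748% passed. Cplx1, which encodes complexin 1, a clamp and activator of SNARE fusion, had the smallest p. It had 14913 to 17508 normalized reads in HT lithium females and 16610 to 17903 in WT lithium females. In HT fluoxetine females it had 14068 to 15966, and in the 3 WT fluoxetine females with these reads 12758, 15063 and 15068. The lithium minus fluoxetine difference was 0.17 ± 0.05 (limma adjusted p = 0.0983). Sv2a differed by 0.09 ± 0.03 (adjusted p = 0.202), Vamp1 by -0.16 ± 0.06 (adjusted p = 0.244), Rims1 by -0.21 ± 0.09 (adjusted p = 0.289) and Syn1 by 0.00 ± 0.06 (adjusted p = 0.975). The comparison is against a drug and holds no vehicle mice. Syn1 averaged 21820 normalized reads in HT fluoxetine females and 17026 in HT vehicle females. Its value of 0.00 thus does not show whether lithium changed it against vehicle.

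Some markers of other cells and regions passed under lithium, in a comparison where 24.3% of all genes did. Over both genotypes 4 of 11 markers of striatal neurons rose (median of the list 0.36), 3 of 10 pan-neuronal markers rose, 3 of 11 excitatory cortical markers rose and 1 fell, 2 of 10 microglial markers rose, 1 of 7 thalamic markers fell, and 4 of 10 endothelial markers fell. Of 9 olfactory bulb markers limma called 0, and 0 had an unadjusted p under 0.05, with a median of 0.36. It also called 0 of 10 GABAergic, 10 astrocyte and 12 myelin markers, where 1, 0 and 3 had an unadjusted p under 0.05. Summed striatal markers ran from 8673 to 23307 normalized reads in HT lithium mice against 7408 to 9172 in HT vehicle mice, and from 9106 to 23185 in WT lithium mice against 7737 to 10160 in WT vehicle mice. Summed olfactory bulb markers ran from 5659 to 18134 normalized reads in HT lithium mice against 5086 to 21546 in HT vehicle mice, and from 5322 to 21631 in WT lithium mice against 5017 to 18762 in WT vehicle mice. The mitral cell gene Eomes was between 0 and 1246 normalized reads, and below 10 in 12 of the 58 libraries. Only the olfactory bulb markers were entered as a covariate, in a fit given below. The part of striatal and the remaining markers in the changes of the 6 genes was not tested.

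The other genes of the terminal, 93 with values in the table and no members of the list, held calls in both directions. Over both genotypes 8 rose and 8 fell with lithium, where 24.3% of all genes were called. In HT mice 7 rose and 5 fell (16.3% of all genes called), and in WT mice 3 rose and 4 fell (7.47% called), so the shares lay near or below those of all genes. Clathrin light chains rose, Clta by 0.24 ± 0.02 (limma adjusted p = 4.95e-11) and Cltb by 0.11 ± 0.02 (adjusted p = 2.78e-05) over both genotypes. So did Atp6v1d, a subunit of the vesicular proton pump, by 0.16 ± 0.03 and Sncb, which encodes beta-synuclein, by 0.26 ± 0.05. Of 14 further active zone and priming genes 4 fell and 0 rose, among them Rims3, a short RIM, at -0.21 ± 0.04 (adjusted p = 8.4e-06) and Tspoap1, the RIM-binding protein 1 gene, at -0.22 ± 0.04 (adjusted p = 2.02e-05). Of 13 proton pump genes 3 rose and 0 fell. Of all genes 12.1% rose and 12.2% fell in this comparison, and whether these small groups differ from that was not tested.

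Fluoxetine was followed by a change in 1 member, Syn1. In HT fluoxetine mice Syn1 had 14248 to 22722 normalized reads (median 20696), against 15169 to 19847 in HT vehicle mice (median 17386), with the lowest of all 58 libraries in an HT fluoxetine male. Above the vehicle mean of their sex lay 9 of 10 HT fluoxetine mice. The difference was 0.20 ± 0.06 (limma adjusted p = 0.0319), 1 of 36 genes where 3.54% of all genes were called. In all 30 of 36 members were above 0 in HT mice (median 0.04), against 51.3% of all genes. In WT mice 11 of 36 were (median -0.01), against 50.2%. The sexes differed in these counts. In females alone 31 were above 0 in HT mice (median 0.11) and 10 in WT mice (median -0.04). In males alone 12 were above 0 in HT mice (median -0.02) and 23 in WT mice (median 0.01). Members varied together within groups, so their signs are not independent, and these counts were not tested. The 9 olfactory bulb markers had a median difference of -0.63 in the HT comparison and 0.21 in the WT comparison. In each, 0 passed in limma and 0 had an unadjusted p under 0.05. With their level as a covariate, 25 of 36 members were above 0 in HT mice (median 0.01) and 16 in WT mice (median -0.01). That covariate was chosen after seeing the data, and the change in these counts was not tested. Over both genotypes the Syn1 difference was 0.13 ± 0.04 (limma adjusted p = 0.037, background 6.15%). In WT mice limma, edgeR and DESeq2 each called 0 members, where limma called 1.38% of all genes. Unadjusted, 0 members had a limma p under 0.05, against 10.5% of all genes, and Syn1 differed by 0.06 ± 0.06, Unc13b by -0.08 ± 0.06 and Bsn by -0.09 ± 0.08.

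Syn1 under fluoxetine was also taken by sex, since the HT fluoxetine females' libraries all hold Gm10221 reads and the males' hold none. HT fluoxetine females had 19854 to 22722 normalized reads (median 22044), all above the 15169 to 19804 of HT vehicle females (median 16733). HT fluoxetine males had 14248 to 20902 (median 19188) and overlapped the 16571 to 19847 of HT vehicle males (median 17907). Fitted alone, females gave 0.36 ± 0.07 (limma adjusted p = 0.00827, 1.32% of all genes called) and males 0.03 (adjusted p = 0.986, 0.123% called). Of the 5 HT fluoxetine males 4 lay above the HT vehicle male mean of 18055, and male 3, at 14248, was far below it. In WT mice the order was the other way, with 0.03 in females (adjusted p = 0.94) and 0.10 in males (adjusted p = 1). The female effect minus the male effect over both genotypes was 0.13 ± 0.08 and did not pass (limma adjusted p = 0.9998). A difference between the sexes over both genotypes was thus not shown, and that within HT mice was not tested. With the Gm10221 term the HT difference was 0.15 (adjusted p = 0.279, 1.03% of all genes called), and with only libraries lacking those reads it was 0.06 (adjusted p = 0.849, 0.536% called). The latter fit holds no HT fluoxetine female. It sets the same 5 HT fluoxetine males against HT vehicle mice of both sexes, so it is no check apart from males alone. The HT call was also lost without any 1 of 11 of the 20 libraries, which were HT fluoxetine females 2, 3 and 5 and males 1, 4 and 5, and HT vehicle females 3, 4 and 5 and males 2 and 5, with adjusted p of 0.0504 to 0.0795. The call over both genotypes was lost without any 1 of 15 of the 39 libraries, with adjusted p up to 0.0707.

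The Tanc2 label made no member pass in any drug arm. Under vehicle 33 of 36 genes had a lower mean in HT mice (median -0.05), leaving 3 above 0, where 50.2% of the genes tested were above 0 and their median was 0.00. In males alone 9 were above 0 (median -0.02) and in females alone 3 (median -0.10). Members varied together within groups (median r = 0.67 between pairs), so their signs are not independent, and these counts were not tested. limma, edgeR and DESeq2 called 0 members, and limma 0% of all genes. Unadjusted, 2 members had a limma p under 0.05, against 4.54% of all genes. Snap91 had 11192 to 13658 normalized reads in HT vehicle mice, against 11423 to 14039 in WT vehicle mice, and differed by -0.08 ± 0.04 (adjusted p = 0.947). Erc1, an ELKS scaffold, differed by -0.09 ± 0.04 and Sh3gl2 by -0.09 ± 0.05. The 9 olfactory bulb markers had a median difference of 0.52 in this comparison, with 0 passing, and summed to a median of 12741 normalized reads in HT vehicle mice against 7412 in WT vehicle mice.

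Under fluoxetine 19 of 36 genes were above 0 (median 0.01), against 49.6% of all genes, and 0 had an unadjusted p under 0.05, against 6.21%, with Rims1 at 0.10 ± 0.08, Syn2 at 0.05 ± 0.05 and Cplx2 at 0.07 ± 0.07. In the libraries without Gm10221 reads, which include no HT fluoxetine female, 2 of 36 were above 0 under fluoxetine (median -0.05). Under lithium 12 were above 0 (median -0.02), against 50.6% of all genes, and 3 had an unadjusted p under 0.05, against 11.2%, which were Unc13a at -0.15 ± 0.06 (adjusted p = 0.311), Bsn at -0.18 ± 0.08 and Snap91 at 0.08 ± 0.04. In both arms limma, edgeR and DESeq2 called 0 members, and limma 0% of all genes.

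Interactions were tested as differences between effects. The fluoxetine effect in HT minus that in WT mice had 33 of 36 members above 0 (median 0.07), where 51% of all genes were. It had 13 of 36 above 0 in the libraries without Gm10221 reads (median -0.01) and 8 of 36 in males alone (median -0.01). Both of these fits hold HT fluoxetine males and no HT fluoxetine females. The lithium effect in HT minus that in WT had 29 of 36 above 0 (median 0.04), where 49.5% of all genes were. The fluoxetine and the lithium interaction share the vehicle mice of each genotype with the comparison under vehicle. Since members varied together within groups, counts of signs here and below are not of independent genes and were not tested. In both, limma, edgeR and DESeq2 called 0 members, and limma 0% of all genes. Unadjusted, 0 members for fluoxetine and 1 for lithium had a limma p under 0.05, against 6.29% and 6.67% of all genes. The smallest p for fluoxetine belonged to Syn1 (0.13 ± 0.08), Syn2 (0.10 ± 0.07) and Cplx2 (0.15 ± 0.11). Females minus males, 32 members were above 0 for lithium (median 0.06) and 26 for fluoxetine (median 0.04), where 50% and 51.5% of all genes were. The 3 tools called 0 members in each, and limma 0% of all genes for lithium and 0.0335% for fluoxetine. Unadjusted, 0 members had a limma p under 0.05 in each, against 2.53% and 3.38% of all genes. Unc13b for lithium (0.12 ± 0.08) and Snap91 for fluoxetine (0.10 ± 0.05) had the smallest p.

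Within groups the machinery varied together, apart from Slc17a6. After each group mean was subtracted, the median Pearson r over 630 pairs of members was 0.67 across 58 libraries. Genes of the same library share its depth and dissection. All but 1 of the 36 pairs with r below 0 included Slc17a6. The closest pair was Cplx2 and Rph3a (r = 0.95), then Syngr1 and Slc17a7 (r = 0.95). A first component held 68.6% of the within-group variance of the list. Such values are not given for other genes, and whether they are particular to this list was not tested. Slc17a6 averaged r = -0.50 with the other members, and Rims2 was next lowest at 0.34.

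**Figure D4:**
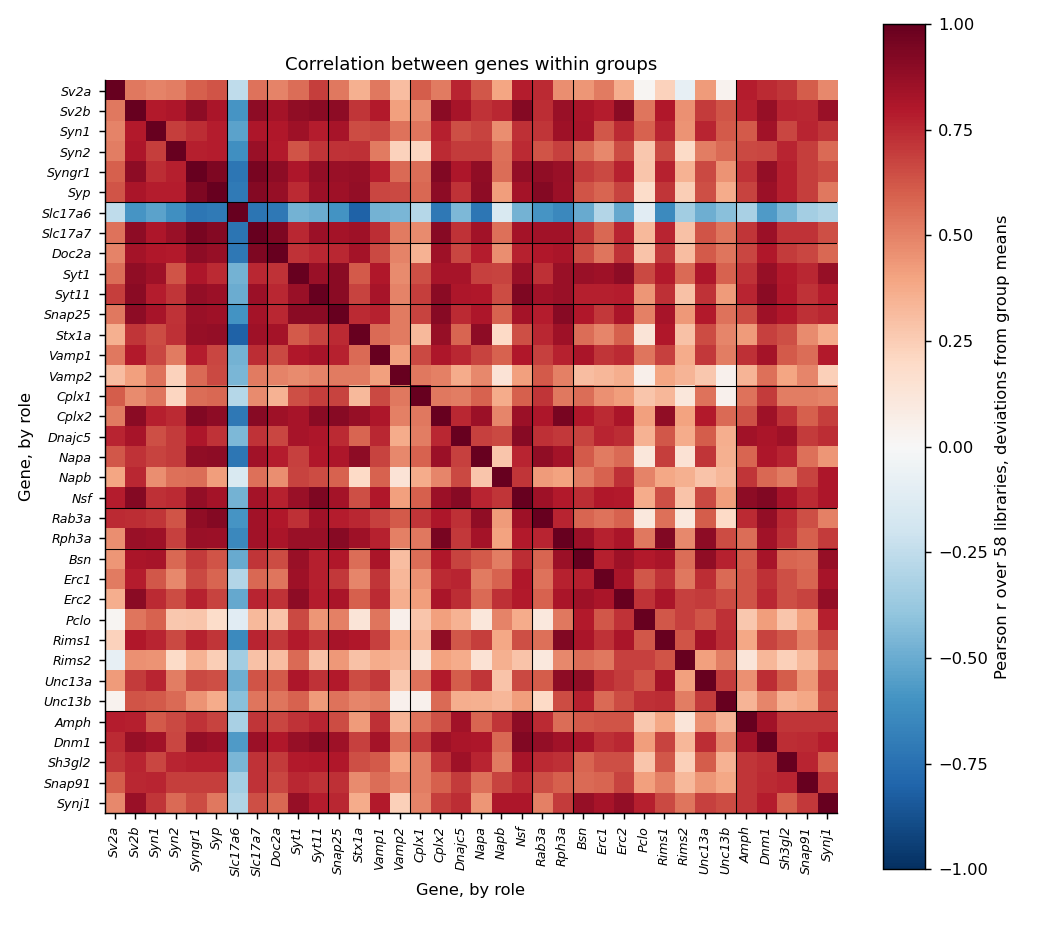
Pearson r between members over 58 libraries, computed on log2 values minus the group mean, with genes ordered by role and black lines between roles. Red squares are positive and blue negative, and the single blue row and column is Slc17a6 (mean r = -0.50).

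The same variation followed the olfactory bulb markers. In a limma fit with the mean log2 level of these 9 markers as a covariate, 35 of 36 members were lower where the markers were higher and Slc17a6 was higher. Of all genes 23.4% were called lower and 22.1% higher. Each unit of log2 in the markers, which spanned 5.33 units, went with -0.08 ± 0.01 for Slc17a7 (adjusted p = 2.18e-12), -0.09 ± 0.01 for Cplx2 (adjusted p = 2.58e-12) and 0.15 ± 0.02 for Slc17a6 (adjusted p = 7.58e-11). The smallest slopes were those of Sv2a at -0.01 (adjusted p = 0.0412) and Dnajc5 at -0.02 (adjusted p = 0.00124). The slopes of Sv2a, Syn1 and Rims1 were -0.01, -0.06 and -0.09 a unit, and differences between genes were not tested.

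Over the 58 libraries, as deviations from group means, Slc17a7 had r = -0.85 and rho = -0.87 with the markers and Slc17a6 r = 0.79 and rho = 0.81, each with p = 1e-05, the smallest that 100000 permutations can give, among 36 such relations. Without the 2 libraries farthest from the median r was -0.84 and 0.79. Among the 27 libraries with Gm10221 reads r was -0.75 for Slc17a7 and 0.78 for Slc17a6, and among the 31 without -0.90 and 0.80. Median r was -0.66 over the members and 0.00 over all genes tested, and 5.44% of all genes were at or below the members' median.

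**Figure D5:**
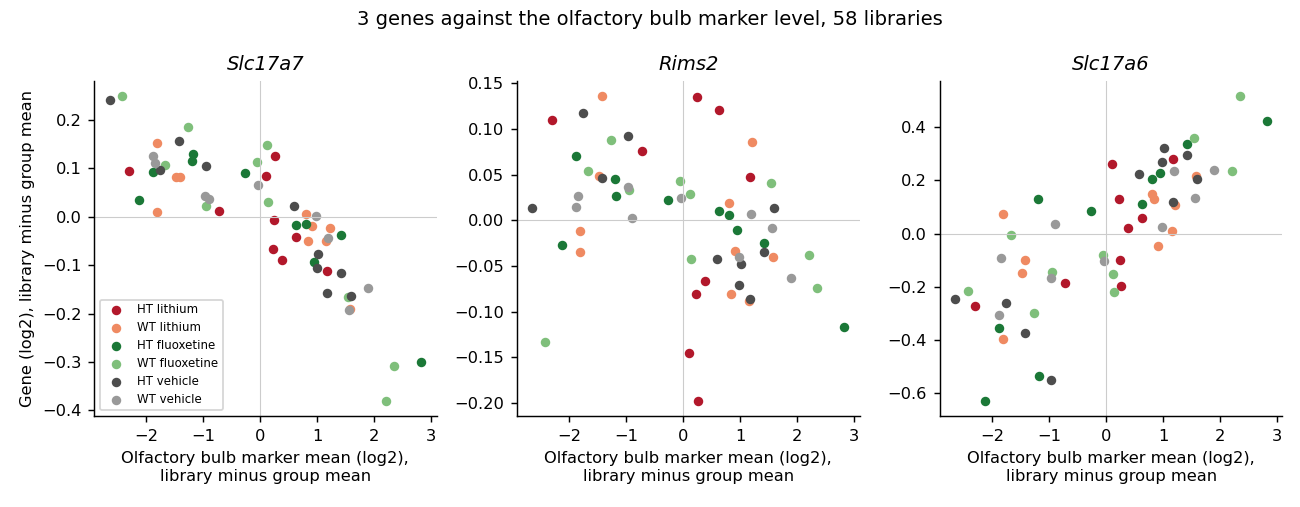
Log2 values of Slc17a7, Rims2 and Slc17a6 minus their group mean (vertical) against the mean log2 olfactory bulb marker level minus its group mean (horizontal), 1 point a library, coloured by arm. Slc17a7 falls with the markers (r = -0.85), Rims2 less so (r = -0.38) and Slc17a6 goes up (r = 0.79).

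With the marker level as a covariate, chosen after seeing the data, more members were called under lithium. Over both genotypes 6 rose (Syn1, Sv2a, Snap91, Erc2, Doc2a, Slc17a7) and 4 fell (Vamp1, Rims1, Unc13b, Stx1a), 10 of 36 where 30.2% of all genes were called. In HT mice 7 rose and 3 fell (background 21.9%), and in WT mice 2 rose and 2 fell (background 10.6%). Vamp1 was then -0.27 ± 0.04, Rims1 -0.26 ± 0.04, Syn1 0.20 ± 0.03 and Doc2a 0.14 ± 0.03 over both genotypes. With both this covariate and the Gm10221 term 0 members were called by limma in the 3 lithium comparisons, but the values went different ways. Over both genotypes Rims1 was at -0.27 (adjusted p = 0.122), near its -0.29 with neither, and Sv2a at 0.09 (adjusted p = 0.267), near its 0.10. Vamp1 was at -0.17 (adjusted p = 0.27), Unc13b at -0.09 (adjusted p = 0.568), Snap91 at 0.02 (adjusted p = 0.888) and Syn1 at 0.01 (adjusted p = 0.977). For Rims1 and Sv2a the call was lost with a value of about the same size. With the covariate the genotype comparison under vehicle had 34 of 36 members below 0 (median -0.03), and 0 passed. Other sign counts moved from those given above. HT minus WT had 9 of 36 above 0 under fluoxetine (median -0.01) and 23 of 36 under lithium (median 0.02). The fluoxetine effect in HT minus that in WT had 25 of 36 above 0 (median 0.03), and the lithium one 30 of 36 (median 0.04). Again 0 members passed in each, and these counts were not tested.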

How the data were processed

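Strand-specific libraries of polyadenylated RNA from 58 mice were sequenced, per the labels' protocols. The authors deposited a normalized signal (reads scaled by 1 size factor per library) for 18088 Ensembl genes. The tools were DESeq2 1.19.11 in R 3.6.0 and Salmon 0.11.2, with GRCm38, per the submitters' processing notes; options are not given in the sources used here. In every column 100% of the deposited values were multiples of 1 step (0.788 to 1.30, within 0.01), which gave back whole reads, though rounding would look alike in the 11 columns whose step is near 1. Symbols, positions and transcript lengths came from GENCODE for GRCm38, where 18077 genes were found.

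Mice were grouped by the labels, which also number the replicates. limma 3.58.1 with trend was fitted to log2(value + 1) of the 17925 genes that reached 10 in 4 or more libraries, with 12 groups of genotype, drug and sex, females and males weighted equally. A gene passed with a two-sided Benjamini-Hochberg adjusted p under 0.05 over all genes tested. Values with ± are log2 differences and SE unless SD is named. edgeR 4.0.16 (quasi-likelihood) and DESeq2 1.42.0 on recovered reads were alternatives, as were other filters, pseudocounts, normalizations, single sexes, the Gm10221 term and leaving out each library; the olfactory bulb covariate was added after seeing the data. The scripts were tested on simulated data. Permutations for correlations with the olfactory bulb markers numbered 100000. Named were members that passed (at most 12 a comparison, else the 3 smallest p) and at most 6 other presynaptic genes a comparison. Members, lists and markers were chosen with earlier results of these data known. Size factors rest on the assumption that few genes differ. Salmon divides reads that paralogs share, so values of near-identical sequences are uncertain.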

Additional observations from a re-analysis of the deposited data

Results flagged for a closer look

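In 6 of 84 groups looked at (6 genes and the median of the list in 12 groups each) 1 mouse lay far from the others, where chance alone flags about 1 group in 20. Sv2a had 14739 normalized reads in WT fluoxetine female 5, the highest of its group, where the next mouse had 12419 and the lowest 11997. In the same way Vamp1 had 1388 normalized reads in WT lithium male 2, the lowest of its group, with the next at 1864 and the highest at 1992. That mouse was also lowest for Unc13b, at 2028.5 normalized reads with the next at 2295 and the highest at 2354. Rims1 had 7758 normalized reads in WT fluoxetine male 5, with the next at 10667 and the highest at 11453.

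The median log2 deviation of the 36 genes from their overall mean stood apart in 2 mice. It was -0.206 in HT fluoxetine male 3, the mouse with the lowest Syn1 of all, with the next of its group at 0.00969 and the highest at 0.0972. It was -0.0913 in WT vehicle male 3, with the next at 0.0623 and the highest at 0.0910.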

How the results depend on the processing

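The counts of members called kept within 1.5 times under edgeR, DESeq2, no filter, a stricter filter, pseudocounts of 0.1 and 5, and removal of length and GC trends in the lithium and fluoxetine comparisons, except for DESeq2 in lithium against fluoxetine females (1 call, where limma gave 0). With the Gm10221 term, alone or beside the olfactory bulb covariate, the count was 0 for lithium in HT, in WT and over both genotypes and for fluoxetine in HT and over both genotypes. Beside the covariate the lithium value of Rims1 over both genotypes stayed at -0.27 (adjusted p = 0.122) while those of Syn1 and Snap91 were 0.01 and 0.02. Only libraries without Gm10221 reads, only the groups compared and males alone gave 0 for fluoxetine in HT and over both genotypes. Males alone gave 0 for lithium in HT and in WT, and females alone 2 in HT and 0 in WT. Quantile normalization gave 5 members for lithium in WT and 10 over both genotypes, and the olfactory bulb covariate 10 in HT and 10 over both; the cause was not tested, though single sexes hold fewer mice. Leaving out 1 library gave 4 to 7 members for lithium in HT, 1 to 3 in WT, 6 to 8 over both genotypes, 0 to 1 for fluoxetine in HT and over both genotypes, and 0 to 1 for lithium against fluoxetine females. The 4 for lithium in HT came without HT lithium female 4 and the 1 for lithium in WT without WT lithium female 5 or WT vehicle male 2.

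Signs turned only in values that did not pass. HT minus WT under fluoxetine was -0.0067 for Cplx2 and -0.0184 for Rims1 in males alone, and -0.0443 for Cplx2, -0.0179 for Rims1 and -0.0131 for Syn2 in libraries without Gm10221 reads. The Syn1 fluoxetine effect in HT minus that in WT was -0.0638 in males alone and -0.0117 in libraries without those reads; the cause was not tested.

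Equal replicate numbers did not pair the mice: r of same-numbered mice over 65 pairs ran from -0.338 to 0.303, with 12 above 0.1. Numbers are those of the sample titles; the library names number 2 of the WT vehicle males differently, and the check was not repeated with those. With the numbers as a replicate block the count of members called was the same in each comparison, 6 for lithium in HT, 3 in WT, 6 over both genotypes and 1 for fluoxetine in HT and over both genotypes. Depth was no limit for these genes, whose lowest value was 368.9 normalized reads.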
